A study of Mus musculus with 2 samples.

Results

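The genes described here are 9 textbook transcriptional targets of the tumour suppressor p53: Cdkn1a, Mdm2, Trp53inp1, Bax, Phlda3, Ccng1, Eda2r, Sesn2 and Zmat3. They were taken by name from the 22253 genes of a single-cell RNA matrix, with earlier results of these data known. All 9 had counts. The cells came from organoid cultures of mouse distal small intestine, that is, epithelial stem cells and their progeny grown as mini-guts, which were sorted, tagged with a hashtag antibody per culture and pooled. There were 3 Etv1 mutant cultures and 2 control cultures, and all 5 carried the reporters Neurog3-RFP and Gcg-Venus. The sources used here do not give how Etv1 was mutated or how the sort was gated, so the shares of cell types below may be set by the gate.

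p53 is a transcription factor that is held low by the ubiquitin ligase Mdm2 and accumulates after DNA damage and other stress. It then switches on genes that halt the cell cycle, favour cell death, limit growth signalling and, through Mdm2, restrain p53 itself. In the intestinal epithelium these genes are best known from irradiated crypts, and Cdkn1a, which encodes the cyclin-dependent kinase inhibitor p21, is also known from cells that leave the cycle as they move up toward the villus.

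After assignment to 1 hashtag and filtering, 1432 cells remained, with 197 to 282 cells per mutant culture and 323 and 349 cells in the control cultures. Summed counts (unique molecular identifiers, UMIs) per culture lay between 4193197 and 7254380, and the median cell held 20842 to 24126 UMIs. Etv1 itself stood at 3.21, 3.06 and 3.10 CPM (counts per 1000000 UMIs) in the mutant cultures and at 6.20 and 6.28 CPM in the control cultures, with no overlap. Cells fell into 11 clusters built without the 9 genes, of which only Cdkn1a would otherwise have been among the variable genes. Stem-like cells held all 8 stem markers, enterocyte-like cells 11 of 12 enterocyte markers and enteroendocrine-like cells 10 of 12 enteroendocrine markers. Goblet/Paneth-like cells held 6 of 8 goblet and 8 of 10 Paneth markers. Both cycling-like clusters are called here by their leading genes, histone genes with Ube2c in one and Clspn, Rrm2 and Pclaf in the other. The remaining clusters stayed unnamed and are called by their genes or depth. They were an Areg/Anxa1, an Stc2/Atf5, an Ifitm3/Ung, a mitochondria-rich and a low-UMI defensin cluster. The Areg/Anxa1 cluster held 7 of 12 enterocyte markers but none among its 10 leading genes. The mitochondria-rich cluster (median 5674 UMIs and 18.5% mitochondrial counts) held 7 of 8 stem and 3 of 10 cycling markers. The low-UMI defensin cluster (median 1342 UMIs) held 6 of 10 Paneth, 3 of 8 stem and 2 of 10 cycling markers.

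Promoter windows reaching 250 bases upstream and 50 bases downstream of a transcription start were found in RefSeq (GRCm38.p6) for 7 of the 9 genes. They were searched on both strands for the 10-base half-site of the p53 consensus. This half-site is palindromic, so that a match on either strand is a match on both. Matches stood in windows of 4 of these genes, Cdkn1a, Bax, Mdm2 and Ccng1, while 8.36% of all 32851 windows held a match. The windows of Phlda3, Sesn2 and Eda2r held none, which says nothing of sites elsewhere. A Cdkn1a window was the only one of a member that held a pair of matches within a spacer of at most 13 bases. This arrangement was found in 0.0731% of all windows. Another Cdkn1a window, at chr17:29093519-29093818 around a different transcription start, held 0 matches. The sequences below show these matches in capitals, in the direction of the gene, because Cdkn1a is the gene on which the results turn and the other 3 serve for comparison. The Cdkn1a window shown lies at chr17:29090729-29091028 on the plus strand. The Bax stretch lies at chr7:45467065-45467124, the Mdm2 stretch at chr10:117710910-117710969 and the Ccng1 stretch at chr11:40755437-40755496, all on the minus strand.
Cdkn1a: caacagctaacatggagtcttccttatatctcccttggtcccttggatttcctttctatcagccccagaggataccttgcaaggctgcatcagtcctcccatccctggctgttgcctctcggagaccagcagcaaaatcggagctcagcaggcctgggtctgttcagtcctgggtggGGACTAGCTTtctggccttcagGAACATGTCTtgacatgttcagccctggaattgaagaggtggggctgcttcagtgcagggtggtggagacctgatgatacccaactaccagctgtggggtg
Bax: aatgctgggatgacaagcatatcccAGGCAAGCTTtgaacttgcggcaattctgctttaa
Mdm2: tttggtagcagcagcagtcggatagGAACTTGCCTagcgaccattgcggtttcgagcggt
Ccng1: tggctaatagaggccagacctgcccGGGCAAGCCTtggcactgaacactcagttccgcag
Counted from the transcription start of the window shown, the Cdkn1a matches ran from -73 to -64 and from -51 to -42, with 12 bases between them. A match is a likeness of letters and not a measured binding site. Trp53inp1 and Zmat3 are named only.

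The 9 genes differed in how firmly they could be measured. In the mm10 annotation, Cdkn1a spans chromosome 17, 29090976 to 29100727, and gave 4186 counts in the analysed cells. Of its values above 0, 10.2% were fractions, and the antisense gene AC167363.2 on the other strand was not analysed here. Bax, at chromosome 7, 45461697 to 45466898, gave 6950 counts. It overlaps the predicted gene Gm45808 on the same strand, so counting could have split reads between both. Ccng1 (chromosome 11, 40748552 to 40755311) gave 1152 counts, Phlda3 (chromosome 1, 135766119 to 135769136) gave 555 and Mdm2 (chromosome 10, 117688875 to 117710758) gave 499. Sesn2 (chromosome 4, 132492032 to 132510501), Zmat3 (chromosome 3, 32334792 to 32366014) and Trp53inp1 (chromosome 4, 11156431 to 11174379) gave 225, 212 and 200 counts. Eda2r, on the X chromosome from 97333840 to 97377216, gave 8 counts, too few for any comparison.

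The brake on the cell cycle was the member that set the clusters apart. Cdkn1a was about 18-fold higher in the Areg/Anxa1 cluster and in enterocyte-like cells than in stem-like cells, about 10-fold higher in enteroendocrine-like cells and about 6-fold higher in goblet/Paneth-like cells. These 4 clusters held 75.4% of all Cdkn1a counts with 27.0% of the cells and 27.4% of the UMIs. Only 6 members could be tested in the Areg/Anxa1 cluster and 5 in each of the others. No other member tested rose in these 4 clusters, where 11.4% to 25.2% of all genes rose. Phlda3, which encodes a competitor of the kinase Akt for membrane lipids, fell in the Areg/Anxa1 cluster and in enterocyte-like cells.

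In the Areg/Anxa1 cluster Cdkn1a stood at 607, 217 and 329 CPM in the mutant cultures and at 670 and 402 CPM in control cultures. In stem-like cells it stood at 33.9, 30.6 and 49.0 CPM in the mutant cultures and at 17.0 and 13 CPM in control cultures. The lowest Areg/Anxa1 value was thus above the highest stem-like value. The log2 fold change was 4.15 (SE 0.21; edgeR quasi-likelihood test with culture as a block, Benjamini-Hochberg adjusted p = 3.64e-22), higher in 5 of 5 cultures. It was 1 of 6 members tested that rose, with 1 that fell, where 25.2% of all 8516 genes tested rose and 27.2% fell. Trp53inp1, Zmat3 and Eda2r were too low for the filter, and the median over the 6 was 0.13 against -0.09 over all genes.

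Enterocyte-like, goblet/Paneth-like and enteroendocrine-like cells had as few as 7 to 9 cells in a culture and were compared under a lower minimum of cells, chosen after seeing the data. In enterocyte-like cells Cdkn1a stood at 491, 288 and 488 CPM in the mutant cultures and at 418 and 490 CPM in control cultures. Against stem-like cells its log2 fold change was 4.16 (SE 0.29, edgeR adjusted p = 6.17e-20). In enteroendocrine-like cells it stood at 167, 667 and 461 CPM in the mutant cultures and at 107 and 360 CPM in control cultures. The log2 fold change there was 3.32 (SE 0.33, edgeR adjusted p = 1.17e-12). The richest single enteroendocrine-like cell gave 24.3% (control culture 1) to 58.3% (mutant culture 2) of the Cdkn1a counts of its culture. The level thus rested on few cells, and its value without them was not tested. In goblet/Paneth-like cells it stood at 190, 94.2 and 257 CPM in the mutant cultures and at 79.1 and 140 CPM in the control cultures, with a log2 fold change of 2.58 (SE 0.32, edgeR adjusted p = 2.39e-09). In all 3 of these classes every culture lay above every stem-like value. Among all genes tested, 24.6% rose and 32.1% fell in enterocyte-like cells, 14.1% rose and 16.4% fell in enteroendocrine-like cells, and 11.4% rose and 6.72% fell in goblet/Paneth-like cells. Of the 5 members tested in each, Sesn2 being too low there as well, Cdkn1a was the 1 that rose.

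Smaller rises of Cdkn1a stood in other clusters. In the Stc2/Atf5 cluster it averaged 64.6 ± 14.5 CPM, against 28.7 ± 14.4 CPM in stem-like cells (SD, n = 5 cultures each), a log2 fold change of 1.18 (SE 0.27, edgeR adjusted p = 0.00113). In the histone cycling-like cluster it averaged 53.4 ± 9.17 CPM (SD, n = 5), a log2 fold change of 0.96 (SE 0.26, edgeR adjusted p = 0.00394). Both were higher than stem-like cells in 5 of 5 cultures, though the ranges overlapped. In the Rrm2 cycling-like cluster the log2 fold change was 0.66 (SE 0.32, edgeR adjusted p = 0.158), in the mitochondria-rich cluster 0.72 (SE 0.37, edgeR adjusted p = 0.13) and in the Ifitm3/Ung cluster 0.13 (SE 0.32, edgeR adjusted p = 0.805). The Rrm2 cluster passed with every gene kept (0.62, edgeR adjusted p = 0.0427) and with the members kept in clustering (0.99, edgeR adjusted p = 0.0220). In the low-UMI defensin cluster, under the lower minimum of cells, it was 1.45 (SE 0.60, edgeR adjusted p = 0.227). That last comparison called 2.45% of all genes in either direction and 0 of 5 members.

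Ordered by the mean over the 5 cultures, Cdkn1a was highest in the Areg/Anxa1 cluster (445 ± 190 CPM), followed by enterocyte-like (435 ± 87.8 CPM), enteroendocrine-like (353 ± 227 CPM) and goblet/Paneth-like cells (152 ± 72.8 CPM; SD, n = 5 each). The first 3 differed by less than their spread. Below them came the low-UMI defensin cluster at 87.2 ± 45.3 CPM, the Stc2/Atf5 cluster, the mitochondria-rich cluster at 60.5 ± 25.5 CPM and the histone cycling-like cluster. The Rrm2 cycling-like cluster at 41.6 ± 12.6 CPM, the Ifitm3/Ung cluster at 31.2 ± 16.9 CPM and stem-like cells closed the order. From enteroendocrine-like cells down, each neighbour differed from the next by less than the larger SD of the pair.

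**Figure D1:**
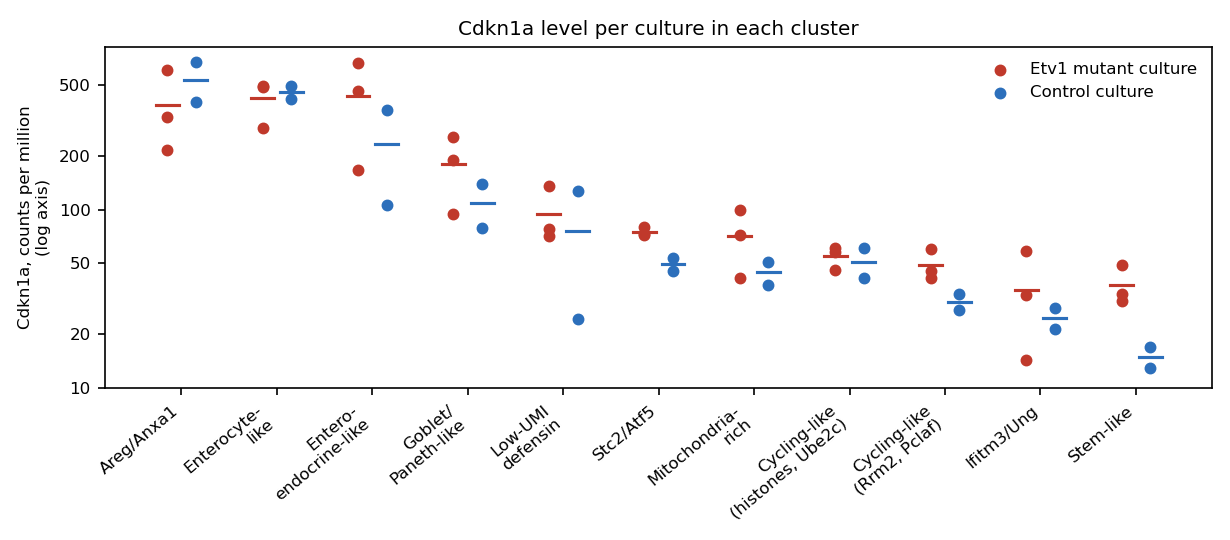
Cdkn1a level in CPM (log axis) in each cluster, 1 point per culture, with Etv1 mutant cultures to the left of control cultures and a short line at each group's mean. Every point of the Areg/Anxa1, enterocyte-like, enteroendocrine-like and goblet/Paneth-like clusters lies above the highest stem-like point, 49.0 CPM.

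Median depth differed between clusters, at 27627 UMIs in the Areg/Anxa1 cluster, 25752 in enterocyte-like, 9535 in enteroendocrine-like, 18178 in goblet/Paneth-like and 19096 in stem-like cells. Cells were therefore also thinned to 3832 UMIs each, which left out 144 cells. A Cdkn1a count then stood in 73.0% of enterocyte-like cells, 65.8% of cells of the Areg/Anxa1 cluster, 35.7% of enteroendocrine-like and 33.8% of goblet/Paneth-like cells, against 8.60% of stem-like cells. Without thinning these shares were 95.1%, 88.6%, 46.0% and 71.1%, against 27.5% in stem-like cells. No cluster here is known to lack Cdkn1a, so the share that free RNA gives was not measured. The stem-like share was the lowest of all clusters after thinning, while without thinning the low-UMI defensin cluster was lower, at 21.3%. Thinned or not, the 4 clusters stayed above stem-like cells.

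Mdm2, the ligase that marks p53 for degradation and is its best-known feedback target, was lower than in stem-like cells in 3 clusters. In the Ifitm3/Ung cluster it stood at 4.47, 7.58 and 13.3 CPM in the mutant cultures and at 10.2 and 11.2 CPM in control cultures. In stem-like cells it stood at 29.9, 16.3 and 17.1 CPM in the mutant cultures and at 15.5 and 26.5 CPM in the control cultures, all above the Ifitm3/Ung values. Mdm2 thus had a log2 fold change of -0.97 (SE 0.30, edgeR adjusted p = 0.0174), lower in 5 of 5 cultures. Against stem-like cells, Mdm2 was also lower in the Rrm2 cycling-like cluster (log2 fold change -1.0, SE 0.34, edgeR adjusted p = 0.0319) and in the Stc2/Atf5 cluster (-0.81, SE 0.29, edgeR adjusted p = 0.0419). In the histone cycling-like cluster its log2 fold change of -0.43 (SE 0.25) missed the threshold (edgeR adjusted p = 0.2). The Ifitm3/Ung call was lost without mutant culture 1 (adjusted p = 0.0611) or control culture 2 (0.0969). That of the Rrm2 cluster was lost without mutant culture 1, 2 or 3 or control culture 2 (edgeR adjusted p = 0.0562 to 0.127), and that of the Stc2/Atf5 cluster without mutant culture 1 or control culture 1 or 2 (0.109 to 0.176). With the members kept in clustering, Mdm2 was at -0.51 in the Rrm2 and -0.39 in the Stc2/Atf5 cluster and passed in neither.

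Bax, which opens the outer mitochondrial membrane in apoptosis, was lower in the mitochondria-rich cluster, at 154, 135 and 174 CPM in the mutant cultures and 107 and 179 CPM in the control cultures. Stem-like cells held 230, 228 and 182 CPM in the mutant cultures and 192 and 193 CPM in the control cultures, so the ranges did not overlap. Its log2 fold change was -0.73 (SE 0.14, edgeR adjusted p = 6.80e-05). All 13 mitochondrially encoded genes were higher in that cluster, with a median log2 fold change of 1.70, and their part in the Bax result was not tested. Of all genes, 16.6% rose and 16.9% fell there, and of the 6 members tested Bax was the 1 that fell and none rose.

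Bax was slightly higher than in stem-like cells in the Stc2/Atf5 cluster (log2 fold change 0.37, SE 0.11, edgeR adjusted p = 0.0114), the Ifitm3/Ung cluster (0.36, SE 0.11, edgeR adjusted p = 0.0133), the Rrm2 cycling-like cluster (0.34, SE 0.11, edgeR adjusted p = 0.0291) and the histone cycling-like cluster (0.28, SE 0.10, edgeR adjusted p = 0.0341). The Stc2/Atf5 call was lost without mutant culture 3 (adjusted p = 0.0901) or control culture 1 (0.0528), and the Ifitm3/Ung call without mutant culture 3 (0.0644) or control culture 1 (0.0653). That of the Rrm2 cluster was lost without mutant culture 1, 2 or 3 or control culture 1 (edgeR adjusted p = 0.0772 to 0.121), and that of the histone cluster without mutant culture 1 (0.0745), mutant culture 3 (0.259) or control culture 1 (0.0642). With the members kept in clustering, Bax was at 0.11, 0.20 and 0.09 in the Stc2/Atf5, Rrm2 and histone clusters and passed in none of the 3, and under the lower minimum of cells it passed in none of the 4. With those of Cdkn1a and Mdm2 they made 2 of 6 members that rose in the histone cycling-like cluster, where 15.4% of all genes rose and 13.1% fell. In the Stc2/Atf5 cluster 2 members rose and 1 fell, where 10.8% of all genes rose and 9.12% fell. In the Rrm2 cycling-like cluster 1 rose and 1 fell, where 10.7% of all genes rose and 6.74% fell, and in the Ifitm3/Ung cluster 1 rose and 1 fell, where 11.5% rose and 9.76% fell.

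Phlda3 went the opposite way to Cdkn1a in the Areg/Anxa1 cluster and in enterocyte-like cells. In the Areg/Anxa1 cluster it stood at 12.5, 5.99 and 5.40 CPM in the mutant cultures and at 9.16 and 6.01 CPM in control cultures. In stem-like cells it stood at 27.6, 16.3 and 19.9 CPM in the mutant cultures and at 13.1 and 19.4 CPM in the control cultures, all above the Areg/Anxa1 values. The log2 fold change was -1.03 (SE 0.30, edgeR adjusted p = 0.00397), lower in 5 of 5 cultures. In enterocyte-like cells Phlda3 was counted in 1 mutant culture (2.43 CPM) and 1 control culture (4.51 CPM) and was at 0 in the other 3. The log2 fold change there was -2.73 (SE 0.59, edgeR adjusted p = 6.51e-05). After thinning to 10809 UMIs, 1 of 59 enterocyte-like cells (1.69%) held a Phlda3 count, against 14.5% of stem-like cells, and without thinning 3.66% did, against 23.3%. In goblet/Paneth-like cells the log2 fold change was -0.43 (SE 0.39, edgeR adjusted p = 0.505) and in enteroendocrine-like cells -0.21 (SE 0.46, edgeR adjusted p = 0.773).

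Trp53inp1, which promotes p53-dependent death and autophagy, averaged 27.0 ± 13.4 CPM in enteroendocrine-like cells and 15.6 ± 5.67 CPM in goblet/Paneth-like cells, against 11.1 ± 3.82 CPM in stem-like cells (SD, n = 5 each). It stood at 2.91 ± 1.28 CPM in the histone cycling-like cluster, 3.04 ± 1.86 CPM in the Stc2/Atf5 cluster and 2.89 ± 0.82 CPM in the Ifitm3/Ung cluster. With all 5 cultures its counts were too low for the filter, so these differences were tested with every gene kept. Trp53inp1 was then lower than in stem-like cells in the histone cycling-like (log2 fold change -1.91, SE 0.42, edgeR adjusted p = 1.02e-04), Stc2/Atf5 (-2.01, SE 0.49, edgeR adjusted p = 8.02e-04) and Ifitm3/Ung clusters (-1.67, SE 0.47, edgeR adjusted p = 0.00664). In those unfiltered fits 8.11%, 5.56% and 5.8% of all genes were lower. Without mutant culture 1 Trp53inp1 passed the filter, with log2 fold changes of -1.84, -2.01 and -1.61 in the same clusters (edgeR adjusted p = 0.00189, 0.00485 and 0.0157). In the histone cycling-like and Ifitm3/Ung clusters no culture reached the lowest stem-like value, 5.01 CPM.

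The other members passed no cluster comparison. Ccng1, a cyclin G that works with a phosphatase on Mdm2, averaged between 22.8 CPM in the low-UMI defensin cluster and 41.8 CPM in goblet/Paneth-like cells. Sesn2, a stress sensor that damps the growth kinase mTORC1, had its largest log2 fold change in the mitochondria-rich cluster (1.05, SE 0.51, edgeR adjusted p = 0.109), where it averaged 13.1 ± 11 CPM, against 6.01 ± 1.27 CPM in stem-like cells (SD, n = 5 each). In enteroendocrine-like cells it averaged 9.82 ± 0.762 CPM (SD, n = 5), above every stem-like value in 5 of 5 cultures, but on 1 or 2 counts per culture and below the filter. Zmat3, an RNA-binding protein that acts on splicing and RNA stability, averaged 15 ± 15 CPM in the mitochondria-rich cluster and 14.6 ± 4.46 CPM in enteroendocrine-like cells, against 6.80 ± 4.45 CPM in stem-like cells (SD, n = 5 each). It was lowest in enterocyte-like cells, at 3.64 CPM, and too low for the filter, and its ranges overlapped those of stem-like cells in every cluster. Eda2r, the receptor of the ectodysplasin form A2, had at most 1 count in any cell.

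**Figure D2:**
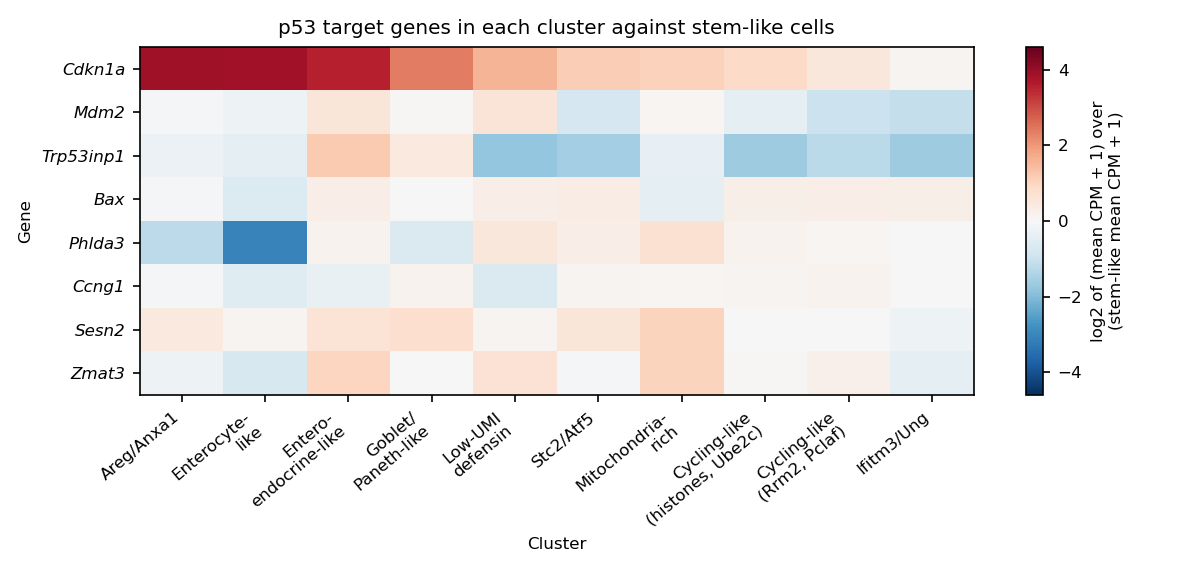
Mean level of 8 members (rows) in each cluster (columns, ordered by Cdkn1a) against stem-like cells, as log2 of the mean CPM of 5 cultures plus 1 over that of stem-like cells; Eda2r is left out for its 8 counts. The Cdkn1a row is dark red in the first 3 columns, while Phlda3 is darkest blue in enterocyte-like cells.

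Across the 35 sums of 1 culture and 1 cluster that entered the fit, no member followed Cdkn1a closely: Pearson's r with the 7 other members counted often enough lay between -0.36 for Phlda3 and 0.20 for Mdm2. Enterocyte-like, enteroendocrine-like, goblet/Paneth-like and low-UMI defensin cells had fewer than 10 cells in a culture and are not among these sums. The Areg/Anxa1 cluster was thus the only cluster with a large Cdkn1a rise in them. The closest pair was Mdm2 with Trp53inp1 at r = 0.62, and the most opposed was Mdm2 with Bax at r = -0.56. The sums share cultures and clusters, so these are descriptions. Among the 5206 genes compared, those with a pattern most like the summed member level, which Cdkn1a dominates in the Areg/Anxa1 cluster, included Ckmt1 (r = 0.89 over 35 sums), Agpat2 (0.88), Prdx5 (0.87), Slc51a (0.86), S100a10 (0.86), Fth1 (0.84) and Phgr1 (0.84). Within clusters their r was lower, between 0.29 and 0.52.

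Cells within a cluster were then split by whether they held a Cdkn1a count, with each cell thinned to 10809 UMIs, which left out 358 cells. In the histone cycling-like cluster the other 8 members together averaged 390 ± 72.4 CPM in cells with a Cdkn1a count and 278 ± 27.4 CPM in cells without one (SD, n = 5 cultures), higher in 5 of 5 cultures. The exact 2-sided paired permutation test gave p = 0.0625, the smallest that 5 cultures allow, and 0.125 after Benjamini-Hochberg adjustment over 4 tests. Bax made up most of this sum, averaging 247 of 341 CPM in that cluster before thinning. Phlda3 was the member with the widest gap, found in 36.1% of 72 cells with Cdkn1a and in 12.6% of 135 cells without it. Mdm2 was found in 16.7% and 8.89% of these cells, and Sesn2 in 0 of 72 and 12 of 135. In the Stc2/Atf5 cluster the other 8 members averaged 353 ± 62.3 CPM in cells with a Cdkn1a count and 380 ± 45.5 CPM in cells without one, higher in 2 of 5 cultures (exact paired permutation p = 0.5, n = 5). Other clusters had too few cells for all 5 cultures. In stem-like cells and in the Ifitm3/Ung cluster the sum was higher in cells with Cdkn1a in 2 of 4 cultures each. It was higher in 2 of 2 cultures in the Rrm2 cycling-like cluster, at 422 ± 35.8 CPM with and 342 ± 18.2 CPM without Cdkn1a. The same held in 2 of 2 cultures in the Areg/Anxa1 cluster, at 305 ± 82.2 CPM and 207 ± 20.7 CPM (SD, n = 2 cultures each). Over all cultures of the Areg/Anxa1 cluster, Mdm2 was found in 13.1% of 107 cells with Cdkn1a and in 30.8% of 26 without it. Trp53inp1 (9.35% and 19.2%), Ccng1 (22.4% and 30.8%), Zmat3 (5.61% and 7.69%) and Sesn2 (11.2% and 11.5%) were also found less often with it. Bax (79.4% and 73.1%) and Phlda3 (7.48% and 3.85%) were found more often.

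**Figure D3:**
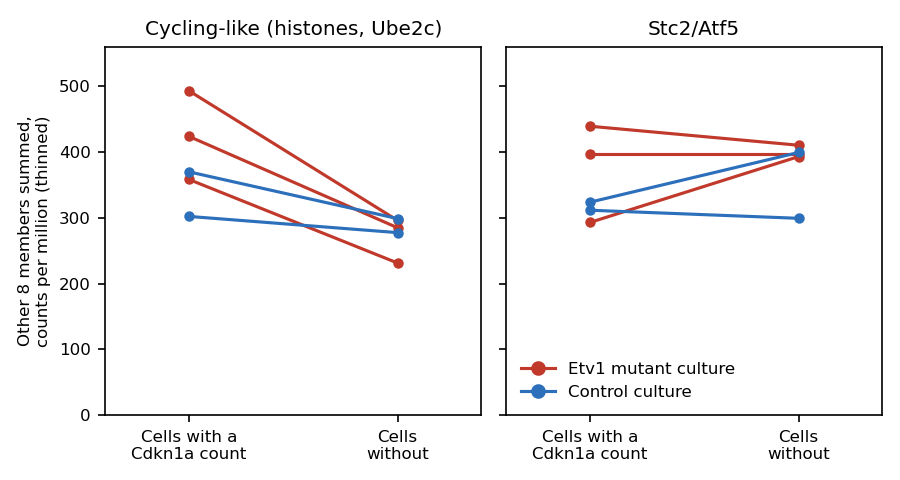
Summed level of the 8 members other than Cdkn1a, in CPM after thinning, in cells with and cells without a Cdkn1a count; each line is 1 culture, red for Etv1 mutant and blue for control. All 5 lines fall to the right in the histone cycling-like cluster, and 2 of 5 do so in the Stc2/Atf5 cluster.

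Between genotypes no member passed the test over all cells, where 0.00904% of 11061 genes did. Bax stood at 237, 234 and 226 CPM in the mutant cultures and at 208 and 212 CPM in the control cultures, with no overlap, but its log2 fold change of 0.14 (SE 0.07) missed the threshold (edgeR adjusted p = 0.9997). Ccng1 stood at 43.1, 39.0 and 38.4 CPM in the mutant cultures and at 33.6 and 31.9 CPM in the control cultures, a log2 fold change of 0.29 (SE 0.10, unadjusted p = 0.0254, edgeR adjusted p = 0.9997). Zmat3 stood at 7.86, 7.49 and 8.59 CPM in the mutant cultures and at 6.48 and 4.43 CPM in the control cultures, a log2 fold change of 0.53 (SE 0.23, edgeR adjusted p = 0.9997). With cultures called by MULTIseqDemux, another hashtag method, Zmat3 was at 0.14, Bax at 0.07 and Ccng1 at 0.26, and Zmat3 was at 0.26 without control culture 2 and 0.85 without control culture 1. These were the 3 members of 8 with every mutant culture above every control culture, a pattern shown by 9.15% of all genes tested. None of the 8 had every mutant culture below every control culture, as 7.8% of all genes did.

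Cdkn1a over all cells stood at 159, 109 and 142 CPM in the mutant cultures and at 162 and 102 CPM in the control cultures, overlapping, with a log2 fold change of 0.04 (SE 0.23) and a 95% interval of -0.41 to 0.48. Cultures also differed in makeup, and the part of this in the level over all cells was not tested. The Areg/Anxa1 cluster made up 12.1% ± 0.848 of mutant and 9.73% ± 2.01 of control cells, and enterocyte-like cells 6.50% ± 3.31 of mutant and 4.65% ± 1.31 of control cells (SD, n = 3 mutant and 2 control cultures). Enteroendocrine-like cells went the other way, at 3.71% ± 1.30 of mutant and 5.37% ± 0.294 of control cells. So did goblet/Paneth-like cells, at 5.55% ± 2.47 of mutant and 6.33% ± 2.39 of control cells. The log2 fold changes of the remaining members were 0.26 for Phlda3 (SE 0.26), 0.07 for Mdm2 (SE 0.17), -0.18 for Sesn2 (SE 0.21) and -0.30 for Trp53inp1 (SE 0.22). In all, 6 of 8 members lay above zero, against 5647 of all 11061 genes, with a median of 0.11 against 0.00 over all genes.

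**Figure D4:**
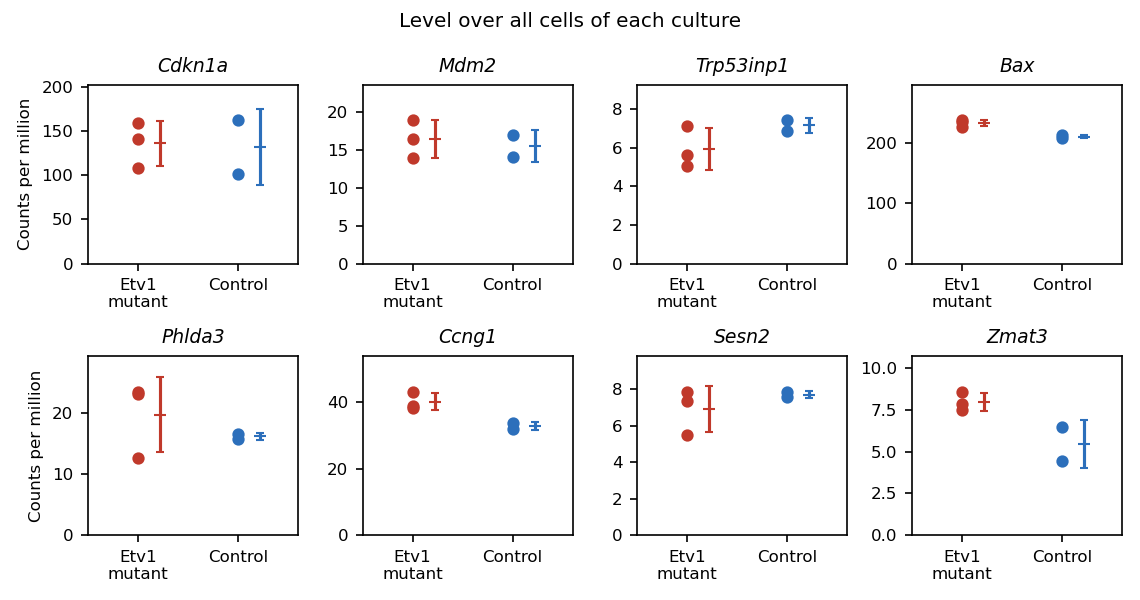
Level of 8 members over all cells of each culture, in CPM on axes that start at 0, with the 3 Etv1 mutant cultures to the left of the 2 control cultures; bars give the mean ± SD of each group. Bax, Ccng1 and Zmat3 show mutant points wholly above control points, and Cdkn1a, Mdm2, Phlda3 and Sesn2 overlap.

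Within stem-like cells Cdkn1a had the largest log2 fold change between genotypes among the 6 members that passed the filter. The values given above, 30.6 to 49.0 CPM in the mutant cultures and 13 and 17.0 CPM in the control cultures, did not overlap, as in 13.5% of the genes tested there. They rested on 14.7, 24.5 and 34.4 counts in the mutant cultures and 14.3 and 12.8 counts in the control cultures. This gave a log2 fold change of 1.28 (SE 0.32, unadjusted p = 6.73e-04), which missed the threshold over 7159 genes (edgeR adjusted p = 0.321), as did every other member tested, where 0.014% of genes passed. It ranged from 1.04 to 1.46 when single cultures were left out and was 1.41 without the cell richest in Cdkn1a of each culture, and its adjusted p over other tools, filters and culture calls lay between 0.0628 and 0.99977. Zmat3, below the filter, stood at 9.20, 5.01 and 12.8 CPM in the mutant cultures and at 5.96 and 1.02 CPM in the control cultures, overlapping, on 1 to 9 counts per culture. With every gene kept its log2 fold change was 1.32 (SE 0.68, edgeR adjusted p = 0.908), about as large as that of Cdkn1a. Eda2r had 2 counts in the mutant cultures and 0 in the control cultures. Enterocyte markers in these cells summed to 391 to 504 CPM in the mutant cultures and to 346 and 368 CPM in the control cultures. Cycling markers summed to 307 to 398 CPM in the mutant cultures and to 246 and 301 CPM in the control cultures. Both thus stood higher in the mutant cultures, and their part in the Cdkn1a difference was not tested.

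In the Areg/Anxa1 cluster, where no gene of 6792 passed by this test, 54 passed with every gene kept and 1 by DESeq2, the Cdkn1a log2 fold change was -0.50 (SE 0.37, edgeR adjusted p = 0.9999). It ranged from -1.0 without mutant culture 1 to -0.05 without control culture 1. The genotype effect on Cdkn1a was 1.89 log2 units larger in stem-like cells than there (SE 0.39, unadjusted p = 4.96e-05), a difference of effects that also missed the threshold (edgeR adjusted p = 0.197) and was computed with all 5 cultures only. In that comparison 0.0126% of genes passed. In the other clusters with at least 10 cells per culture, a minimum chosen after seeing the data, the Cdkn1a log2 fold change was 0.65 (SE 0.31) in the Rrm2 cycling-like, 0.62 (SE 0.22) in the Stc2/Atf5, 0.48 (SE 0.41) in the mitochondria-rich, 0.31 (SE 0.42) in the Ifitm3/Ung and 0.11 (SE 0.20) in the histone cycling-like cluster, and none passed. Of all genes, 0.0202%, 0%, 0.0665%, 0% and 0.0239% passed in these 5 comparisons. Mdm2 and Ccng1 in the Areg/Anxa1 cluster had log2 fold changes of 0.94 (SE 0.44) and 0.67 (SE 0.27), without passing.

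**Figure D5:**
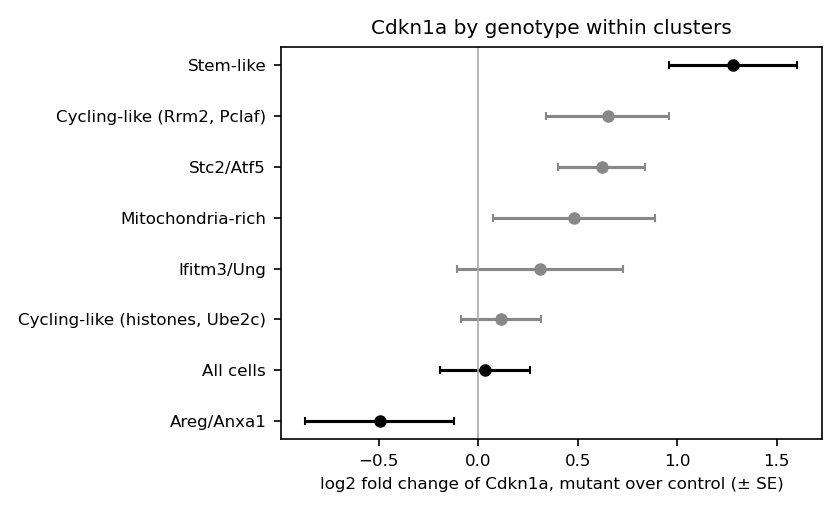
Log2 fold change of Cdkn1a, mutant over control, with its SE as bars, over all cells and within each cluster with at least 10 cells per culture; black points were planned and grey points were added after seeing the data. The stem-like point lies at 1.28 and the Areg/Anxa1 point at -0.50.

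Genes around the members were counted from lists of the same pathway. In the Areg/Anxa1 cluster against stem-like cells, 9 of 28 other p53 targets tested rose and 5 fell, with a median log2 fold change of 0.21 against -0.09 over all genes. In this comparison 25.2% of all genes rose and 27.2% fell, and the counts of the other p53 targets, and those of CDK inhibitors, BCL2 family genes and relatives of the members below, lie near these shares. Among the other p53 targets Perp, a desmosome and death-associated membrane protein, rose by 1.49 (SE 0.14), Sertad1 by 1.73 (SE 0.22) and the growth arrest gene Gadd45a by 1.26 (SE 0.23), while the antiproliferative Btg2 fell by 0.99 (SE 0.16). Trp53, the gene of p53 itself, fell by 1.51 (SE 0.13, edgeR adjusted p = 2.88e-14), and of 15 regulators tested, Trp53 included, 10 fell and 1 rose. The damage kinases Chek1 and Atm fell by 3.16 (SE 0.48) and 2.25 (SE 0.35).

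Of the 5 other CDK inhibitors tested in that cluster, 2 rose and 2 fell. Cdkn2b, an inhibitor of Cdk4 and Cdk6, rose by 6.84 log2 units (SE 0.32, edgeR adjusted p = 7.77e-24) and its relative Cdkn2d by 3.31 (SE 0.59), while Cdkn1b fell by 0.89 (SE 0.18) and Cdkn2c by 1.48 (SE 0.45). Of 11 BCL2 family genes tested, 4 rose and 3 fell, among them the death effector Bak1 (1.43, SE 0.18), the sensitizer Bad (1.15, SE 0.19), the survival gene Bcl2 (-2.83, SE 0.32) and Bik (-3.46, SE 0.69). Of 8 relatives of the members tested, 2 rose and 3 fell. Sesn3, a paralogue of Sesn2, fell by 1.96 (SE 0.21), and Phlda2, a paralogue of Phlda3, rose by 2.62 (SE 0.36). ATF4-type stress genes rose in 9 of 12 cases and fell in 1, with Atf5 at 2.43 (SE 0.22) and Chac1 at 5.49 (SE 0.56), and immediate early genes fell in 8 of 12 and rose in 1. Neither pattern was particular to this cluster. In the histone, Stc2/Atf5, Rrm2, Ifitm3/Ung and mitochondria-rich clusters, ATF4-type genes rose in 10, 11, 4, 6 and 8 of 12. Immediate early genes fell in 9, 10, 9, 11 and 3 of 12 in the same clusters.

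Enterocyte-like cells gave a similar split under the lower minimum of cells. Trp53 fell by 2.41 (SE 0.20), Cdkn2b rose by 7.53 (SE 0.33) and Bcl2 fell by 4.11 (SE 0.52). Other p53 targets rose in 9 and fell in 10 of 27 tested, near the shares of all genes that rose (24.6%) and fell (32.1%) there, with the detoxifying enzyme Ephx1 at 2.98 (SE 0.27). The median over all genes was -0.22 in this comparison, against which these values stand.

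Between genotypes over all cells, no gene of these lists passed. Other p53 targets lay above zero in 28 of 37 tested, and ATF4-type stress genes in 1 of 12, against 5647 of all 11061 genes. Their median log2 fold changes were 0.15 and -0.15, against 0.00 over all genes. In stem-like cells 18 of 20 other p53 targets tested lay above zero, against 3538 of all 7159 genes. Their median was 0.27 against 0.00 over all genes, and none passed. BCL2 family genes leaned the same way, with 10 of 11 tested above zero. The lists were chosen with earlier results of these data known, and these leans were not tested. Bak1 (0.94, SE 0.32, edgeR adjusted p = 0.643) was the only BCL2 family gene with an unadjusted edgeR p under 0.05 in stem-like cells. Bcl2l11 had a larger shift (1.01, SE 0.57, edgeR adjusted p = 0.841).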

How the data were processed

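Sorted cells were pooled and read out in 2 libraries, RNA and hashtags. The deposited hashtag matrix holds whole counts for 5 hashtags over 3409 barcodes. The deposited RNA matrix holds estimated counts per gene (95.6% of values above 0 are whole), not normalized as far as the values show. Per the submitters' processing notes, alevin and Cell Ranger 6.1.0 were used with Seurat 4.3.0, Salmon 1.4.0 and mm10, in roles not given in the sources used here. The labels tie hashtags to genotypes.

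Barcodes were assigned with HTODemux (Seurat 5.3.0, positive quantile 0.99) and kept with at least 500 genes and at most 25% mitochondrial counts; 2725 passed, of which 239 with several hashtags and 1054 with none were left out. No barcode occurred more than once. Scrublet marked 3 of 2725 barcodes (0.110%), so it has not worked, and doublets within a culture may remain. Cells were clustered with scanpy 1.11.5 (counts scaled to 10000, 2000 variable genes without the members, 30 components, 15 neighbours, Leiden resolution 0.8) and named from marker lists with at least 3 markers up by 0.5 log2 units and found in at least 25% of cells. Naming also used the 10 leading genes and a 3-fold bound on depth against the culture median. The Areg/Anxa1, mitochondria-rich and low-UMI defensin clusters thus stayed unnamed although they held at least 3 markers of a list. Names are rebuilt from these data.

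Counts were summed per culture, or per culture and cluster, rounded, and tested with the edgeR 4.0.16 quasi-likelihood test (R 4.3.3, TMM, filterByExpr, Benjamini-Hochberg over all genes tested, threshold 0.05). Genotype was tested over all cells and in clusters with at least 20 cells per culture, and clusters with at least 10 cells per culture were set against stem-like cells with culture as a block, since each culture gives every cluster. Alternatives were DESeq2 1.42.0 or its size factors, no filter, each culture left out, MULTIseqDemux, no block, members kept in clustering and stricter cell filters. Added after seeing the data were minimums of 7 and 10 cells, the genotype by cluster term and leaving out the cell richest in Cdkn1a. Thinning drew UMIs without replacement to the 10th or 25th percentile of totals. Intervals on counts cover counting error only. All 9 members were named in every comparison, up to 4 genes of each other list by smallest p, and the 8 genes most like the summed members (mean of at least 20 CPM, prior count 1), of which 1 is not reported here. The members and lists were chosen with earlier results of these data known. The labels call the cultures biological replicates. Tests were run on simulated data first.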

Additional observations from a re-analysis of the deposited data

Results flagged for a closer look

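Cdkn1a also stood out in barcodes that entered no comparison. The 1054 barcodes that passed the filters but carried no hashtag call held 235 CPM of Cdkn1a (95% exact Poisson interval 227 to 244, counting error only), above the mutant cultures, at 109 to 159 CPM, and the control cultures, at 162 and 102 CPM. Mdm2 (17.8 CPM), Ccng1 (34.7 CPM), Sesn2 (8.61 CPM), Zmat3 (7.44 CPM) and Trp53inp1 (7.6 CPM) also lay above both control cultures there, but the interval of each reached below the higher control culture. Bax, Phlda3 and Eda2r did not lie above both. In the same barcodes the 12 enterocyte markers summed to 4295 CPM, against 1981 CPM in the analysed cells, and the median was 5510 UMIs per barcode, against 22323. The part of these in the Cdkn1a level was not tested.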

How the results depend on the processing

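Cdkn1a stayed past the threshold in the Areg/Anxa1, Stc2/Atf5 and histone cycling-like clusters, Phlda3 in the Areg/Anxa1 cluster and Bax in the mitochondria-rich cluster under every alternative run for them. No paired analysis was possible because mutant and control cultures share no replicate numbers; for clusters, leaving out the culture block lost the Mdm2 call in the Stc2/Atf5 cluster (log2 fold change -0.80, edgeR adjusted p = 0.0577) and changed no other member's call. The count of genes passing between genotypes over all cells was 1, against 6 by DESeq2, 2 with no filter, 2 with MULTIseqDemux and 1 to 6 without single cultures. In the Areg/Anxa1 cluster it was 0, against 1 by DESeq2, 54 with no filter and 0 to 2 without single cultures, and in stem-like cells 1, against 19 with no filter and 1 to 26 without single cultures. With members kept in clustering, 1126 genes passed in the Stc2/Atf5 and 920 in the Rrm2 cluster, against 1693 and 1483; the Ifitm3/Ung cluster had no counterpart there, and it gave 986 to 1644 without single cultures, against 1809. The share of cells with Cdkn1a was averaged over the cultures of each genotype (n = 3 mutant and 2 control cultures). At the 25th percentile of depth these means were 47.0% in mutant and 38.3% in control cultures, against 29.3% and 22.1% at the 10th. The genotypes overlapped at the 25th percentile, where mutant culture 2 lay below control culture 1, but not at the 10th. Neither difference was tested.

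Uncalled members changed sign as follows, with the cause not tested. Between genotypes over all cells, Cdkn1a was -0.0042 with MULTIseqDemux and -0.29 to 0.43 without single cultures, and Mdm2 -0.04 to 0.19. In stem-like cells Mdm2 was 0.16 with MULTIseqDemux and -0.46 to 0.28 without single cultures, Trp53inp1 -0.60 to 0.06 and Ccng1 -0.13 to 0.53. With members kept in clustering, Mdm2 was 0.0037 in the histone and 0.52 in the mitochondria-rich cluster, Phlda3 -0.10 in the mitochondria-rich and Bax -0.15 in the Areg/Anxa1 cluster. Without the block, Sesn2 was -0.01 in the Rrm2 and Mdm2 0.0017 in the mitochondria-rich cluster, where DESeq2 size factors gave 0.01. Without single cultures, ranges were -0.05 to 0.32 (Ccng1) and -0.24 to 0.02 (Sesn2) in the histone cluster, -0.01 to 0.44 (Phlda3) and -0.08 to 0.09 (Sesn2) in the Rrm2 cluster, -0.09 to 0.29 (Mdm2), -0.03 to 0.18 (Bax) and -0.01 to 0.35 (Ccng1) in the Areg/Anxa1 cluster, and for Ccng1 -0.01 to 0.21 in the Ifitm3/Ung and -0.25 to 0.09 in the mitochondria-rich cluster. Without a change of sign, Phlda3 between genotypes over all cells was 0.09 and Trp53inp1 -0.14 with MULTIseqDemux, and without single cultures Phlda3 was 0.11 to 0.52 and Sesn2 -0.27 to -0.03. Low counts limit Trp53inp1, Zmat3 and Eda2r.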
